A study of Homo sapiens with 9 samples.

Results

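The genes described here make the glycosylphosphatidylinositol (GPI) anchor and the N-linked glycan, the glycolipid and the oligosaccharide that the endoplasmic reticulum attaches to proteins. They were followed in 501mel, an established human melanoma cell line, after knockdown of the T-box transcription factor TBX3. The members were taken by symbol alone: the PIG genes without PIGR, which encodes an immunoglobulin receptor, PGAP1 to PGAP3, GPAA1, the ALG genes, DPM1 to DPM3, DPAGT1, RPN1, RPN2, STT3A, STT3B, DDOST, DAD1 and MGAT1 to MGAT5. These symbols matched 53 of the 25382 entries of the count table, and 52 of the 53 were among the 14731 genes with enough reads to test. The exception was PIGY, a subunit of the first enzyme of the GPI pathway, which had 0 reads in all 9 libraries and is given no level. Its annotated exons lie 100% within those of PYURF, also at 0 reads.

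RNA levels were read as counts per gene in 9 libraries of total RNA, taken 24 h after lipofection. Cells received the control DsiRNA NC1 (3 libraries), DsiRNA 13.6 against TBX3 (3 libraries) or DsiRNA 13.8 against TBX3 (3 libraries). A DsiRNA is a short RNA duplex that Dicer cuts into a silencing RNA. All cells, controls included, thus carried lipid and a duplex, and all come from 1 cell line. The study asked which genes differ between control and knockdown. Both knockdown groups are compared with the same 3 controls, so the changes of the reagents are given side by side, and the difference between the reagents was tested directly. The labels call the libraries biological replicates without describing how they were separated, and p-values measure the spread between these libraries.

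Libraries held 38105026 to 52272147 counted reads, and values are given as CPM, which are counts scaled to a common library total after TMM adjustment. TBX3 itself was at 88.6, 83.8 and 84.0 CPM in control libraries, 46.4, 41.0 and 39.4 with 13.6 and 36.1, 33.7 and 36.2 with 13.8. The log2 fold change was -1.02 ± 0.071 (SE) with 13.6 and -1.27 ± 0.071 with 13.8 (edgeR adjusted p = 1.27e-07 and 1.03e-08). Summed melanocyte markers reached 13330 to 15339 CPM in control libraries, 13807 to 14961 with 13.6 and 17287 to 18100 with 13.8. All 7 were detected in each group. Taken singly they did not move together: 2 rose and 3 fell with 13.6, and 3 rose and 3 fell with 13.8. Summed fibroblast markers were low but differed, with 5.33 to 6.86 CPM in control, 6.97 to 8.90 with 13.6 and 27.2 to 28.5 with 13.8, none of the 9 at 0 reads, and all 7 tested ones rose with 13.8. Leukocyte markers summed to 72.4 to 77.8, 98.6 to 105 and 75.6 to 81.4 CPM in the same order. Keratinocyte markers summed to 39.2 to 46.2 CPM over all libraries, with KRT5 at 0 reads throughout, and endothelial markers stayed under 0.78 CPM. Only 2 of the 4 leukocyte markers and 1 of the 4 keratinocyte markers had enough reads to test, so their sums rest on few genes. The part of these markers in the results below was not tested.

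A GPI anchor is built sugar by sugar on phosphatidylinositol, starting on the cytosolic face of the endoplasmic reticulum, and is transferred as a whole to the carboxyl end of a protein, which it then holds at the cell surface. An N-glycan is likewise built in advance, on the lipid dolichol, and is transferred as a block to asparagine residues of a growing protein before enzymes of the Golgi trim and branch it. Both routes draw mannose from dolichol-phosphate mannose, and melanosomal proteins such as tyrosinase are known to be heavily N-glycosylated.

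Members were called at an edgeR quasi-likelihood Benjamini-Hochberg adjusted p under 0.05 over all genes tested. With 13.6, 23 of 52 members rose, 13 fell and 16 were not called, where 24.9% of all genes tested rose and 25% fell. With 13.8, 20 members rose, 10 fell and 22 were not called, against 27.5% and 27.9% of all genes. The median log2 fold change over the members was 0.17 with 13.6 and 0.10 with 13.8, beside -0.0090 and 0.013 over all genes tested. For the mean of both reagents against control, 21 members rose and 15 fell, against 23.3% and 26.9% of all genes. Between the reagents, 19 members were higher with 13.6 and 21 were higher with 13.8, against 30.9% and 30.2% of all genes. Most changes were small. Members called with at least a 2-fold change numbered 2 with 13.6 and 4 with 13.8, where 8.1% and 11.5% of all genes tested were. In a bulk sample, less RNA per cell and fewer cells that make the RNA cannot be told apart.

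**Figure D1:**
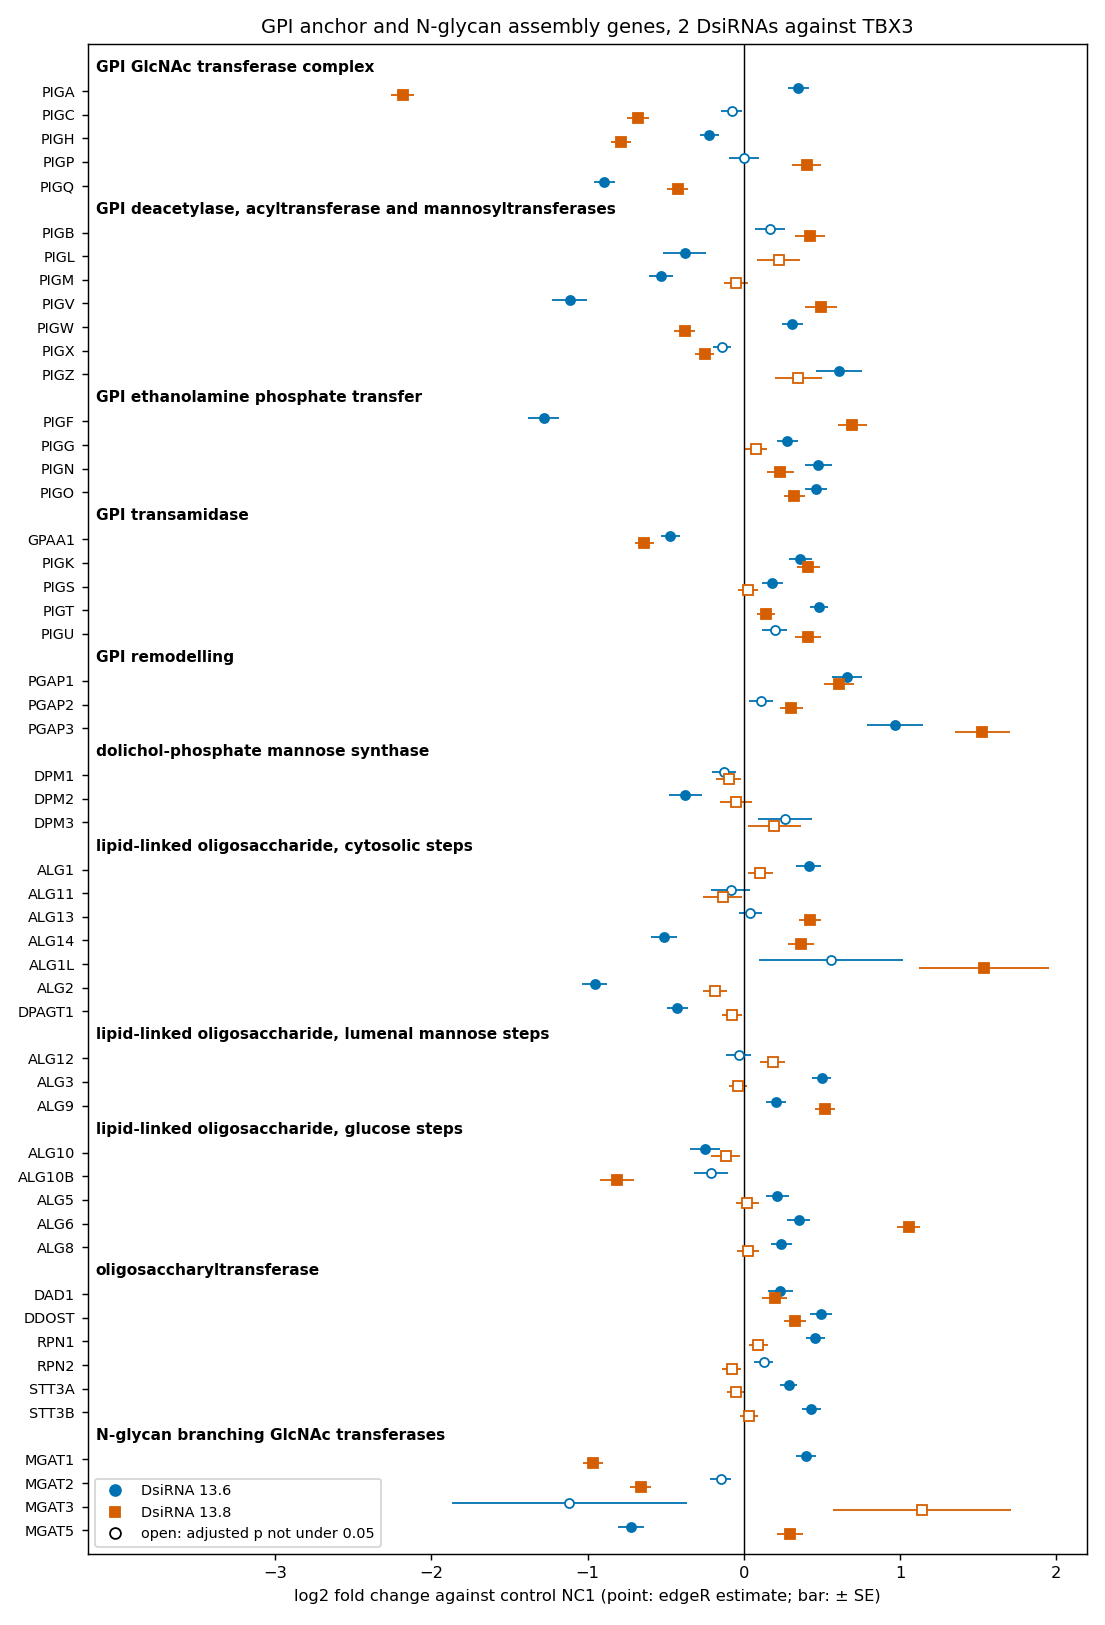
Log2 fold change of each of the 52 tested members against control, grouped by role, with DsiRNA 13.6 as circles and 13.8 as squares. Bars are ± SE, derived from the F statistic of the edgeR fit of 9 libraries, and open symbols did not pass the adjusted p threshold of 0.05. PIGA with 13.8 lies farthest left at -2.18, and several genes, among them PIGF and PIGV, lie on opposite sides of 0 for the reagents.

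The reagents moved 13 of the 52 members the same way, as they did 22.4% of all genes tested. The comparisons share their controls, so the counts of this paragraph are a description and nothing is read from them. PIGN, PIGO, PIGK, PIGT, PGAP1, PGAP3, ALG9, ALG6, DAD1 and DDOST rose with both, and PIGH, PIGQ and GPAA1 fell with both. Another 7 moved in opposite directions, where 9.01% of all genes did: PIGA, PIGW and MGAT1 rose with 13.6 and fell with 13.8, while PIGV, PIGF, ALG14 and MGAT5 fell with 13.6 and rose with 13.8. The difference between the reagents was itself called in all 7. A further 26 were called with one reagent only (42.6% of all genes), and the 6 genes DPM1, DPM3, ALG11, ALG12, RPN2 and MGAT3 with neither (26% of all genes).

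The first step of the GPI pathway is the transfer of N-acetylglucosamine (GlcNAc) to phosphatidylinositol by a complex in which PIGA is the catalytic subunit and PIGC, PIGH, PIGP, PIGQ and PIGY are partners. With 13.8, 4 of the 5 tested subunits fell and PIGP rose, where 27.9% of all genes tested fell and 27.5% rose. With 13.6, PIGA rose, PIGH and PIGQ fell and PIGC and PIGP were not called. PIGA stood at 28.8, 29.8 and 30.3 CPM in control libraries, 38.2, 36.3 and 38.6 with 13.6 and 6.87, 6.49 and 6.20 with 13.8. The 3 groups did not overlap, and the 13.8 libraries were the lowest by far. PIGA rose 1.27-fold with 13.6 (log2 0.35 ± 0.067, edgeR adjusted p = 7.98e-04) and fell 4.55-fold with 13.8 (log2 -2.18 ± 0.074, adjusted p = 2.75e-10). PIGC was at 44.7, 42.3 and 47.3 CPM in control, 42.7, 44.2 and 40.5 with 13.6 and 26.7, 28.5 and 28.8 with 13.8. Its 13.8 libraries lay below all others, while control and 13.6 overlapped. The log2 fold change was -0.68 ± 0.069 with 13.8 (edgeR adjusted p = 2.3e-06) and -0.077 ± 0.068 with 13.6 (adjusted p = 0.368).

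PIGH, which binds PIGA, read 51.1, 51.2 and 54.2 CPM in control, 45.2, 46.3 and 42.8 with 13.6 and 29.4, 30.4 and 31.0 with 13.8. The groups stepped down in that order without overlap. PIGH fell by both tests, with log2 changes of -0.22 ± 0.062 for 13.6 and -0.79 ± 0.063 for 13.8 (edgeR adjusted p = 0.00966 and 2.45e-07). The 13.6 call was lost without the third 13.6 library (adjusted p = 0.0513). PIGQ, a subunit that stabilises the complex, read 55.5, 63.7 and 55.6 CPM in control, 31.4, 31.0 and 31.8 with 13.6 and 41.9, 44.0 and 44.4 with 13.8. Here the 13.6 libraries were the lowest and the controls the highest, again without overlap. Its log2 changes were -0.89 ± 0.069 and -0.42 ± 0.068 (edgeR adjusted p = 2.99e-07 and 1.52e-04). PIGP went the other way, with a log2 change of 0.40 ± 0.093 with 13.8 (adjusted p = 0.00239) and near 0 with 13.6 (adjusted p = 0.998). Summed over the subunits, levels were 200.2 to 213 CPM in control, 177 to 179 with 13.6 and 133 to 140.2 with 13.8. In the annotation, 25.9% of the exon length of PIGQ is shared with NHLRC4 and Z98883.1 on the same strand, and 14.7% of that of PIGH with PLEKHH1 on the other strand. NHLRC4 held 89 to 286 reads a library and rose with 13.8 (log2 0.90 ± 0.22), whereas PIGQ fell. PLEKHH1, at 219 CPM in control, fell with both reagents (log2 -0.61 and -0.72), as PIGH did, and its part in the PIGH change was not tested.

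**Figure D2:**
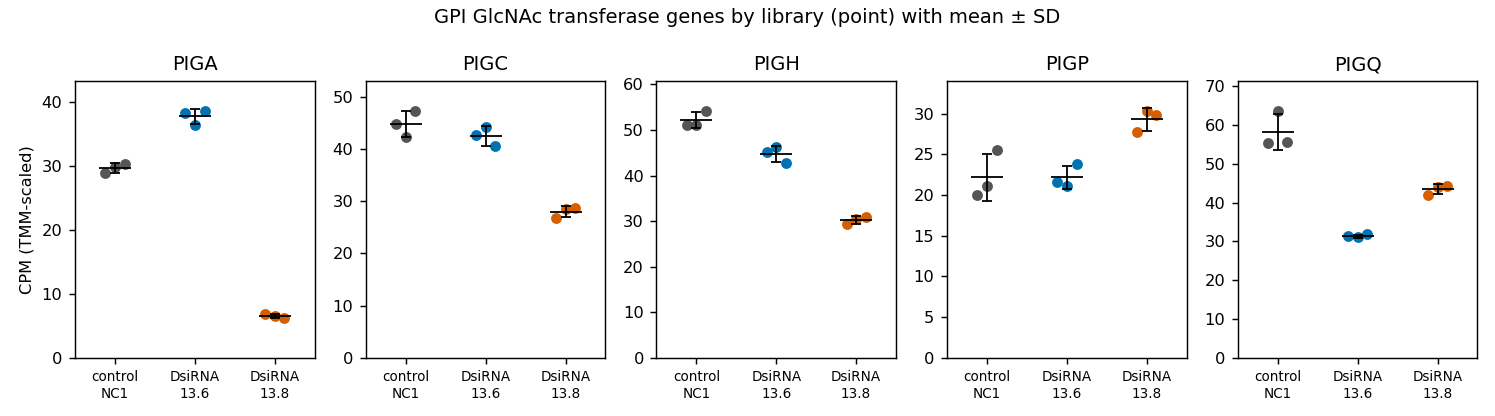
CPM of the 5 tested subunits of the GPI GlcNAc transferase in each library (points), with mean ± SD of the 3 libraries of a group. PIGA, PIGC and PIGH are lowest with DsiRNA 13.8, PIGQ is lowest with 13.6, and PIGP is highest with 13.8.

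The sites of 7-base words in 3′ untranslated regions are shown for PIGA and 3 other members because an earlier search of these data had picked the word AACTGTC, as well as GCTCTGT and another given further on, by the fold changes of all genes. Nothing is tested with the words for that reason. Regions are the longest annotated 3′ untranslated region of each gene (GENCODE v29 transcripts, GRCh38), read in transcript direction, and 51 members had one. AACTGTC occurred in 4 of the 51 members and in 11% of the 12463 genes searched. PIGA held it 3 times in 2055 bases, and MGAT2, ALG10B and ALG14 once each. The word is in capitals, and positions count from the first base after the stop codon:
PIGA at 1127: tggatgttattAACTGTCattgttgttgcc
PIGA at 1685: tttaattcttaAACTGTCatttatttgaga
PIGA at 1845: accttaattgtAACTGTCagtttgcactgg
MGAT2 at 360: aatttatttaaAACTGTCatagcagtaaaa
ALG10B at 7775: gattacaaaatAACTGTCtgagctgggatt
ALG14 at 1635: aaaaacaaaaaAACTGTCttctctgaatca
With 13.8, PIGA, MGAT2 and ALG10B fell and ALG14 rose. Of the 47 members without the word, 18 rose and 7 fell with 13.8. The median log2 change with 13.8 was -0.74 over the 4 carriers and 0.11 over the 47. The medians cannot support the word, which was picked on the same fold changes. The regions of MGAT2, ALG10B and ALG14 hold 869, 8515 and 8669 bases, and the part of region length was not tested.

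After the GlcNAc transfer, PIGL removes the acetyl group, PIGW acylates the inositol, and PIGM with its partner PIGX, then PIGV, PIGB and PIGZ add the mannoses in turn. With 13.6, PIGW and PIGZ rose and PIGL, PIGM and PIGV fell. With 13.8, PIGV and PIGB rose and PIGW and PIGX fell. PIGV, which adds the second mannose, was at 7.21, 8.71 and 7.16 CPM in control, 3.68, 3.47 and 3.50 with 13.6 and 10.6, 10.9 and 11.1 with 13.8. Each group stood clear of the others, with the controls between the reagents. The level fell 2.16-fold with 13.6 (log2 -1.11 ± 0.11, edgeR adjusted p = 3.12e-06) and rose 1.41-fold with 13.8 (log2 0.50 ± 0.10, adjusted p = 0.00115). PIGW was at 20.9, 21.0 and 21.5 CPM in control, 25.9, 26.3 and 26.6 with 13.6 and 17.1, 15.5 and 16.1 with 13.8. The controls again lay between the reagents, here with 13.6 on top. PIGW changed by log2 0.31 ± 0.069 and -0.38 ± 0.069 (edgeR adjusted p = 0.00201 and 4.28e-04).

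PIGM, the first mannosyltransferase, read 25.4, 24.9 and 23.9 CPM in control, 18.5, 16.9 and 16.0 with 13.6 and 25.3, 23.6 and 22.8 with 13.8. The 13.6 libraries lay below all others, and the rest overlapped. PIGM fell with 13.6 (log2 -0.53 ± 0.078, edgeR adjusted p = 8.88e-05) and had a log2 change of -0.049 ± 0.076 with 13.8 (adjusted p = 0.612). PIGL, the deacetylase, read 4.78, 5.59 and 5.33 CPM in control, 3.30, 4.16 and 4.57 with 13.6 and 6.08, 6.60 and 5.61 with 13.8. All 13.6 libraries lay under the controls and all 13.8 libraries above them. The log2 change was -0.38 ± 0.14 with 13.6 (edgeR adjusted p = 0.0381) and 0.22 ± 0.14 with 13.8 (adjusted p = 0.181). The 13.6 call was lost without control library 2 or 3 or without 13.6 library 1 or 2 (adjusted p = 0.0672 to 0.156). PIGZ, which adds the fourth mannose of some anchors, read 3.85, 2.78 and 2.76 CPM in control, 4.97, 5.07 and 4.38 with 13.6 and 4.03, 4.02 and 3.96 with 13.8. Its controls were lowest, but 1 of them stood well above its fellows. PIGZ rose with 13.6 (log2 0.61 ± 0.15, edgeR adjusted p = 0.00403), and with 13.8 the log2 change of 0.35 ± 0.15 was not called (adjusted p = 0.0622) unless that first control library was left out (adjusted p = 0.00812). PIGX had log2 changes of -0.14 ± 0.059 and -0.25 ± 0.059 (edgeR adjusted p = 0.0640 and 0.00275), and PIGB of 0.17 ± 0.095 and 0.42 ± 0.094 (adjusted p = 0.163 and 0.00182). In the annotation, 26% of the exon length of PIGB lies opposite CCPG1, DNAAF4-CCPG1 and PIGBOS1. CCPG1 rose with both reagents (log2 0.63 ± 0.087 and 0.43 ± 0.087), and its part in the PIGB change was not tested.

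Of the 53 members, 43 had a promoter window of 250 bases before to 50 after a start site (RefSeq, GRCh38.p14). GGTGTGA, the core of the T-box motif, was sought on both strands because TBX3 is a T-box factor. PIGV was the one member with it, where 4.2% of the 27305 genes with a window had it. The match reads TCACACC on the strand of the gene, in capitals, within chr1:26787450-26787496 on the plus strand, 79 bases before the start site:
PIGV promoter: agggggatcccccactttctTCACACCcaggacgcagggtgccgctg
The match is a description and no binding was measured. TGACGTG, the core bound by the stress factors XBP1 and ATF6, was found in the windows of PIGP and MGAT1, where 2.4% of genes had it, TGACGTCA, the cyclic AMP response element, in that of PGAP2 (2.25% of genes), and the endoplasmic reticulum stress element, CCAAT and CCACG 9 bases apart, in that of ALG12 (0.0916% of genes). TGACGTCA does not hold TGACGTG, and both strands were read for each.

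Ethanolamine phosphate is added by PIGN to the first mannose, by PIGG to the second mannose and by PIGO to the third mannose. That on the third mannose is the bridge to the protein. PIGF is the partner of PIGG and PIGO. PIGN, PIGG and PIGO rose with 13.6 and PIGN and PIGO with 13.8, while PIGF fell with 13.6 and rose with 13.8. PIGF read 14.996, 15.5 and 18.8 CPM in control, 7.29, 6.47 and 6.53 with 13.6 and 26.2, 27.4 and 26.2 with 13.8. No 2 groups overlapped, with the controls in the middle. PIGF fell 2.43-fold with 13.6 (log2 -1.28 ± 0.10, edgeR adjusted p = 3.21e-07) and rose 1.62-fold with 13.8 (log2 0.70 ± 0.093, adjusted p = 3.07e-05). In the annotation, 44.3% of the exon length of PIGF lies opposite RHOQ, a small GTPase gene at 194 CPM in control. RHOQ moved against PIGF, with log2 changes of 0.41 ± 0.059 with 13.6 and -0.90 ± 0.060 with 13.8. The kit keeps strand, but the strand setting of the counting is not given in the sources used here. PIGO read 37.7, 40.5 and 36.4 CPM in control, 51.1, 54.5 and 52.2 with 13.6 and 51.1, 45.9 and 46.4 with 13.8. All 6 knockdown libraries exceeded the controls. PIGO rose by log2 0.46 ± 0.068 and 0.32 ± 0.068 (edgeR adjusted p = 9.59e-05 and 0.00130). PIGN had log2 changes of 0.48 ± 0.087 and 0.23 ± 0.087 (edgeR adjusted p = 5.01e-04 and 0.0346). The 13.8 call of PIGN was lost on leaving out control library 1 or 3, 13.6 library 2 or 13.8 library 1 (adjusted p = 0.0501 to 0.138). PIGG rose with 13.6 alone (log2 0.28 ± 0.069, adjusted p = 0.00433), and its log2 change with 13.8 was 0.077 ± 0.069.

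The word GCTCTGT occurred in the 3′ untranslated regions of 12 of the 51 members, where 20.8% of genes had it. It is shown for the 5 of the 12 that fell with 13.6, at its first site in each:
PIGF at 89: ttccatttacaGCTCTGTtttttacgtagt
ALG2 at 498: atagcgagagtGCTCTGTattttttttaag
MGAT5 at 1323: attgctgccatGCTCTGTacaagtttgtaa
PIGM at 4766: actcaatactgGCTCTGTcaagtgtctctt
ALG14 at 1969: aggctttctctGCTCTGTactttgttccct
With 13.6, 2 other carriers, PIGA and PIGW, rose, and the remaining 5 were not called. The median log2 change with 13.6 was -0.36 over the 12 carriers and 0.23 over the 39 other members. These values describe the members and cannot support the choice of the word, which was made on the same fold changes. GATTAAC occurred in PIGM and PIGN (5.85% of genes), of which PIGM fell and PIGN rose with 13.6.

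The GPI transamidase joins the finished anchor to the protein. It holds PIGK, the catalytic subunit, with GPAA1, PIGS, PIGT and PIGU. GPAA1 fell with both reagents, while PIGK and PIGT rose with both, PIGS rose with 13.6 and PIGU with 13.8. GPAA1 read 141, 137 and 149 CPM in control, 99.3, 108 and 100.003 with 13.6 and 87.3, 92.6 and 94.1 with 13.8. All 6 knockdown libraries lay below the controls. GPAA1 fell by 1.39-fold with 13.6 (log2 -0.47 ± 0.061, edgeR adjusted p = 2.91e-05) and 1.56-fold with 13.8 (log2 -0.64 ± 0.061, adjusted p = 1.36e-06). PIGT read 106, 109 and 103.9 CPM in control, 143, 156 and 146 with 13.6 and 119, 120.5 and 113 with 13.8. The groups did not overlap, and 13.6 was highest. Its log2 change was 0.48 ± 0.057 with 13.6 (edgeR adjusted p = 1.49e-05) and 0.14 ± 0.057 with 13.8 (adjusted p = 0.0466), the latter lost whichever of the 9 libraries was left out (adjusted p = 0.0549 to 0.148). PIGK had log2 changes of 0.36 ± 0.073 and 0.41 ± 0.073 (edgeR adjusted p = 0.00113 and 3.45e-04). PIGU had 0.20 ± 0.081 and 0.41 ± 0.081 (adjusted p = 0.0583 and 7.4e-04), and it passed with 13.6 as well without the third control library (adjusted p = 0.00848). PIGS rose with 13.6 (log2 0.18 ± 0.067, adjusted p = 0.0382) and was at 0.027 ± 0.067 with 13.8. The PIGS call was lost in 7 of 9 fits that left out 1 library, all but those without control library 2 or 13.8 library 1 (adjusted p = 0.0504 to 0.158).

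Attached anchors are remodelled by PGAP1, which removes the acyl chain from inositol in the endoplasmic reticulum, and by PGAP3 and PGAP2, which exchange a fatty acid in the Golgi. All 3 rose with 13.8 (27.5% of all genes tested did), and PGAP1 and PGAP3 rose with 13.6 (24.9%). PGAP3 read 1.62, 2.18 and 2.91 CPM in control, 4.17, 4.27 and 4.66 with 13.6 and 5.83, 6.72 and 6.71 with 13.8, from 75 to 354 reads a library. Levels stepped up from control to 13.6 to 13.8 without overlap. PGAP3 rose 1.96-fold (log2 0.97 ± 0.18, edgeR adjusted p = 5.77e-04) and 2.88-fold (log2 1.53 ± 0.18, adjusted p = 7.57e-06). Of its exon length, 7.09% lies opposite ERBB2, which fell with both reagents (log2 -1.37 ± 0.11 and -0.56 ± 0.10). PGAP1 read 13.6, 15.2 and 12.1 CPM in control, 23.1, 21.1 and 20.3 with 13.6 and 22.4, 19.8 and 20.2 with 13.8. The controls were lowest, and the reagents overlapped with each other. Its log2 changes were 0.66 ± 0.096 and 0.61 ± 0.096 (edgeR adjusted p = 8.34e-05 and 1.21e-04), and the difference between the reagents was 0.048 ± 0.094 (adjusted p = 0.671). PGAP2 had log2 changes of 0.11 ± 0.075 and 0.30 ± 0.075 (edgeR adjusted p = 0.249 and 0.00364).

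Dolichol-phosphate mannose, a mannose donor that both routes use, is made by DPM1 with the small subunits DPM2 and DPM3. DPM1, the catalytic subunit, had log2 changes of -0.13 ± 0.078 and -0.097 ± 0.078, neither called (edgeR adjusted p = 0.202 and 0.308). DPM2, which also binds the GPI GlcNAc transferase, fell with 13.6 (log2 -0.37 ± 0.10, adjusted p = 0.00902) and was at -0.049 ± 0.10 with 13.8. DPM3 was not called with either, at 0.26 ± 0.17 and 0.20 ± 0.17. The third control library, at 14.4 CPM beside 8.87 and 9.83, decided this, and without it DPM3 passed with both reagents (edgeR adjusted p = 0.00586 and 0.0125).

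The N-glycan precursor begins on the cytosolic face with DPAGT1, which puts GlcNAc phosphate on dolichol phosphate, ALG13 and ALG14, which add another GlcNAc, and ALG1, ALG2 and ALG11, which add mannoses. With 13.6, ALG1 rose and DPAGT1, ALG14 and ALG2 fell. With 13.8, ALG13, ALG14 and ALG1L rose and none of the 7 fell, where 27.5% of all genes tested rose and 27.9% fell. ALG2 read 28.7, 28.0 and 28.3 CPM in control, 15.6, 15.4 and 13.0 with 13.6 and 25.0, 25.8 and 24.1 with 13.8. The 13.6 libraries stood far below the others, and the 13.8 libraries lay just under the controls. ALG2 fell 1.94-fold with 13.6 (log2 -0.95 ± 0.080, edgeR adjusted p = 6.36e-07), and with 13.8 the log2 change of -0.19 ± 0.078 was not called (adjusted p = 0.0590) except without the third 13.6 library (adjusted p = 0.0385). ALG14, the membrane anchor of ALG13, read 16.9, 16.1 and 19.5 CPM in control, 12.04, 12.3 and 12.6 with 13.6 and 22.1, 22.1 and 23.4 with 13.8. The controls lay between the reagents without overlap. Its log2 changes were -0.51 ± 0.086 and 0.36 ± 0.083 (edgeR adjusted p = 2.63e-04 and 0.00226). DPAGT1 had log2 changes of -0.43 ± 0.067 and -0.076 ± 0.066, ALG1 of 0.41 ± 0.078 and 0.11 ± 0.078, ALG13 of 0.042 ± 0.072 and 0.42 ± 0.071, and ALG11 of -0.084 ± 0.12 and -0.14 ± 0.12. ALG1L, a partial copy of ALG1, held 6 to 30 reads a library and rose with 13.8 (log2 1.54 ± 0.42, edgeR adjusted p = 0.00676), where reads shared with ALG1 could be split. ALG11 shares 57.6% of its exon length with UTP14C on the same strand. ALG1 shares 30.8% with NAGPA-AS1 on the same strand and 26.5% with EEF2KMT on the other. Of DPAGT1, 19.8% lies opposite C2CD2L, and of ALG1L 34.8% lies opposite FAM86JP. C2CD2L had log2 changes of 0.17 ± 0.084, not called, and -0.46 ± 0.085. The part of these overlaps was not tested.

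Inside the endoplasmic reticulum, ALG3, ALG9 and ALG12 add further mannoses. ALG3 rose with 13.6, ALG9 rose with both, and ALG12 was not called with either. ALG3 read 84.3, 84.1 and 87.4 CPM in control, 114, 128 and 119 with 13.6 and 81.0, 85.8 and 82.3 with 13.8. Only the 13.6 libraries stood apart, above the rest. Its log2 change was 0.50 ± 0.060 with 13.6 (edgeR adjusted p = 1.5e-05) and -0.038 ± 0.060 with 13.8 (adjusted p = 0.617). ALG9 read 28.7, 28.4 and 26.2 CPM in control, 32.0, 32.9 and 31.0 with 13.6 and 40.1, 39.7 and 39.3 with 13.8. Levels stepped up in that order without overlap. Its log2 changes were 0.20 ± 0.065 and 0.52 ± 0.064 (edgeR adjusted p = 0.0180 and 1.53e-05), and the 13.6 call was lost without control library 3 or 13.6 library 2 (adjusted p = 0.0574 to 0.0677). A locus on the same strand, AP001781.2, covers 74.5% of the exon length of ALG9. ALG12 had log2 changes of -0.031 ± 0.081 and 0.18 ± 0.080 (edgeR adjusted p = 0.772 and 0.0667), and the latter passed without control library 2 (adjusted p = 0.0217). A locus on the other strand, AL671710.1, covers 39% of the exon length of ALG12.

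Glucoses complete the precursor. ALG5 makes the glucose donor, ALG6 adds the first glucose, ALG8 the second, and ALG10 or ALG10B the last. ALG6 read 27.8, 29.5 and 33.6 CPM in control, 38.5, 38.1 and 39.4 with 13.6 and 61.5, 63.9 and 63.8 with 13.8. The groups stepped up in that order without overlap. ALG6 rose 1.28-fold with 13.6 (log2 0.35 ± 0.073, edgeR adjusted p = 0.00137) and 2.08-fold with 13.8 (log2 1.06 ± 0.073, adjusted p = 6.35e-08). ALG10B read 20.6, 17.96 and 18.9 CPM in control, 19.6, 15.8 and 14.4 with 13.6 and 11.5, 10.9 and 10.4 with 13.8. The 13.8 libraries lay below all others, while 1 of the 13.6 libraries reached into the control range. Its log2 change was -0.81 ± 0.11 with 13.8 (edgeR adjusted p = 3.37e-05) and -0.21 ± 0.11 with 13.6 (adjusted p = 0.125), which passed without the first 13.6 library (adjusted p = 0.0140). ALG10 had log2 changes of -0.25 ± 0.094 and -0.12 ± 0.093. It was called lower with 13.6 (edgeR adjusted p = 0.0415), and that call held among the 9 fits only without control library 1 (lost at 0.0503 to 0.153). The coding sequences of ALG10 and ALG10B are identical at 1389 of 1422 bases (97.7%), so their split of reads is uncertain. A locus on the other strand, AC046130.1, covers 20.7% of the exon length of ALG10. ALG5 and ALG8 rose with 13.6, by log2 0.22 ± 0.071 and 0.24 ± 0.068 (edgeR adjusted p = 0.0226 and 0.0101), and stood at 0.023 ± 0.071 and 0.026 ± 0.068 with 13.8. The ALG5 call was lost without control library 1 or 2 or 13.6 library 3 (adjusted p = 0.0636 to 0.110).

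Oligosaccharyltransferase moves the finished oligosaccharide onto asparagine, through the catalytic subunits STT3A, which acts during translation, and STT3B, which can act after it, with RPN1, RPN2, DDOST and DAD1 shared by both forms. With 13.6, 5 of the 6 rose and RPN2 was not called, where 24.9% of all genes tested rose. With 13.8, DDOST and DAD1 rose and the other 4 were not called, where 27.5% of all genes rose. STT3A read 207, 209 and 206 CPM in control, 249.6, 251 and 259.5 with 13.6 and 209, 200.2 and 192 with 13.8, and STT3B was at 157, 159 and 151 in control, 216, 199.8 and 215 with 13.6 and 166, 152 and 161 with 13.8. In both, the 13.6 libraries stood above all others, and the 13.8 libraries overlapped the controls. With 13.6 the log2 changes were 0.29 ± 0.054 for STT3A, 0.43 ± 0.058 for STT3B, 0.46 ± 0.060 for RPN1 and 0.50 ± 0.070 for DDOST (edgeR adjusted p = 6.45e-04, 4.23e-05, 3.56e-05 and 6.67e-05). With 13.8 they were -0.051 ± 0.054, 0.033 ± 0.058, 0.093 ± 0.060 and 0.33 ± 0.070 (adjusted p = 0.450, 0.655, 0.206 and 0.00143). The difference between the reagents was called for STT3A, STT3B, RPN1 and RPN2, each higher with 13.6, by log2 0.20 ± 0.060 for RPN2 to 0.40 ± 0.058 for STT3B (edgeR adjusted p = 0.0101 and 5.35e-05). The RPN2 difference was lost without the third 13.8 library (adjusted p = 0.0510). RPN2 had log2 changes of 0.13 ± 0.060 and -0.076 ± 0.060. DAD1 had log2 changes of 0.23 ± 0.080 and 0.20 ± 0.080 (edgeR adjusted p = 0.0266 and 0.0484), and its groups overlapped. The DAD1 call was lost with 13.6 without control library 1 or 2 or 13.6 library 2 or 3 (adjusted p = 0.0745 to 0.106), and with 13.8 in all fits but those without control library 3 or 13.8 library 1 (adjusted p = 0.0594 to 0.174). Summed over the 6 genes, levels were 1559 to 1635 CPM in control, 1970.0 to 2075 with 13.6 and 1689 to 1716 with 13.8. DDOST shares 20.1% of its exon length with PINK1-AS on the same strand, which was at 4.06 CPM in control.

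**Figure D3:**
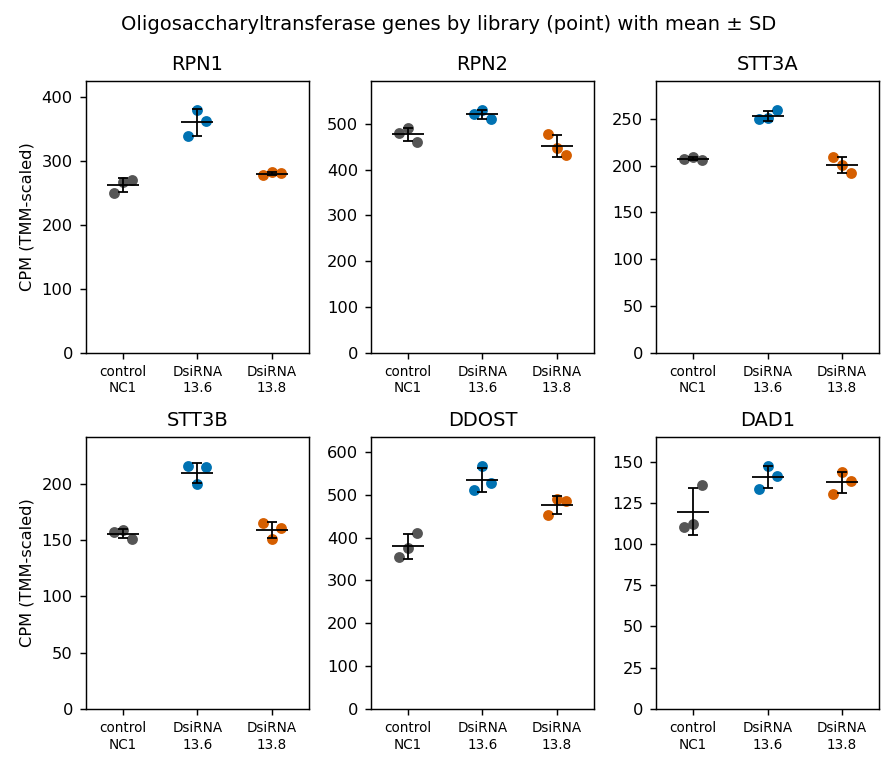
CPM of the 6 oligosaccharyltransferase genes in each library (points), with mean ± SD of the 3 libraries of a group. With DsiRNA 13.6 all libraries of RPN1, STT3A, STT3B and DDOST lie above the controls; with 13.8 those of STT3A and STT3B overlap them.

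In the Golgi, MGAT1 adds the GlcNAc that opens the way to hybrid and complex glycans, MGAT2 the one that makes them complex, MGAT5 a further branch and MGAT3 the bisecting GlcNAc. MGAT1 read 358, 317 and 360.2 CPM in control, 453, 446 and 468 with 13.6 and 174, 183 and 175 with 13.8. The controls lay between the reagents, and no groups overlapped. MGAT1 rose 1.32-fold with 13.6 (log2 0.40 ± 0.063, edgeR adjusted p = 1.54e-04) and fell 1.95-fold with 13.8 (log2 -0.96 ± 0.063, adjusted p = 4.17e-08). MGAT2 read 56.3, 51.2 and 57.4 CPM in control, 48.3, 50.2 and 50.5 with 13.6 and 32.7, 36.1 and 35.5 with 13.8. Its 13.8 libraries lay far below the rest, and its 13.6 libraries just under the controls. The log2 change was -0.66 ± 0.068 with 13.8 (edgeR adjusted p = 2.54e-06) and -0.15 ± 0.067 with 13.6 (adjusted p = 0.0870), which passed without control library 2 (adjusted p = 0.0368). An antisense locus, AL139099.1, covers 91.9% of the exon length of MGAT2. MGAT5 read 54.1, 55.8 and 45.8 CPM in control, 32.3, 30.7 and 31.5 with 13.6 and 69.0, 61.9 and 60.1 with 13.8. It fell with 13.6 and rose with 13.8, and no groups overlapped. The log2 changes were -0.72 ± 0.082 and 0.30 ± 0.081 (edgeR adjusted p = 9.93e-06 and 0.00704). MGAT3 held 1 to 19 reads a library and was not called against control, with log2 changes of -1.12 ± 0.75 and 1.14 ± 0.57. Its reads are too few to show a small change, and the difference between the reagents was -2.26 ± 0.65 (edgeR adjusted p = 0.00863).

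**Figure D4:**
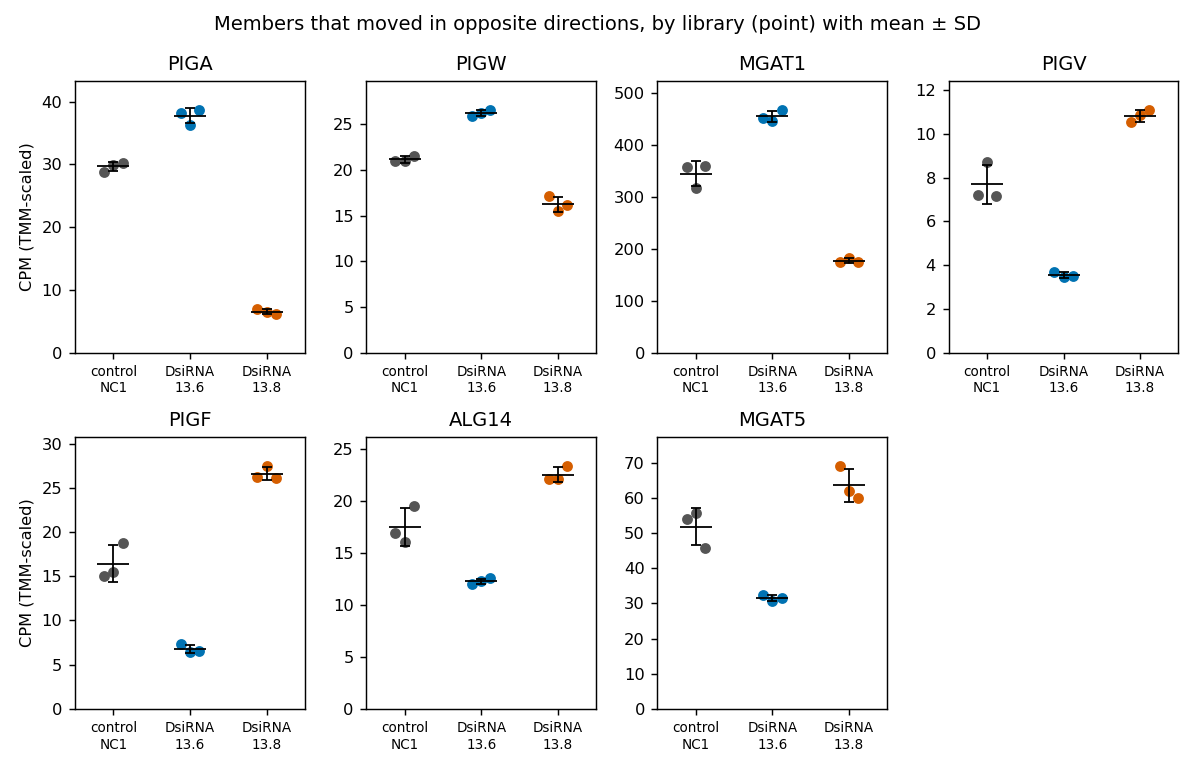
CPM in each library (points) of the 7 members that the reagents moved in opposite directions, with mean ± SD of the 3 libraries of a group. In each panel the controls lie between DsiRNA 13.6 and DsiRNA 13.8.

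Levels of different genes can be set side by side per kilobase of annotated exon (GENCODE v29 lengths, GRCh38). In control cells the oligosaccharyltransferase genes led, with 186 ± 5.87 CPM per kb for RPN2 (SD, n = 3), 179 ± 13.4 for DDOST and 164 ± 19.6 for DAD1, which do not differ beyond their spread. RPN1 followed at 99.6 ± 4.05, then DPM1 at 73.4 ± 7.24 and GPAA1 at 68.3 ± 2.85, of which the last 2 overlap. STT3A stood at 44.2 ± 0.336 and STT3B at 36.7 ± 0.941 CPM per kb. Among GPI genes, the catalytic subunit PIGA was at 7.99 ± 0.196 CPM per kb in control, below its partners PIGH at 25.5 ± 0.867, PIGC at 17.0 ± 0.958 and PIGQ at 13.5 ± 1.10 and above PIGP at 2.95 ± 0.391. With 13.8, PIGA fell to 1.76 ± 0.0914 CPM per kb, under PIGP at 3.90 ± 0.185. These orders rest on the whole annotated exon length, 7512 bases for PIGP and 3710 for PIGA. Of PIGP, 6412 bases are its longest 3′ untranslated region. Which transcripts the cells made was not measured, and the SD covers only the spread between libraries. PGAP3 at 0.818 ± 0.236, ALG1L at 0.201 ± 0.0464 and MGAT3 at 0.0260 ± 0.0165 were the lowest members with reads.

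**Figure D5:**
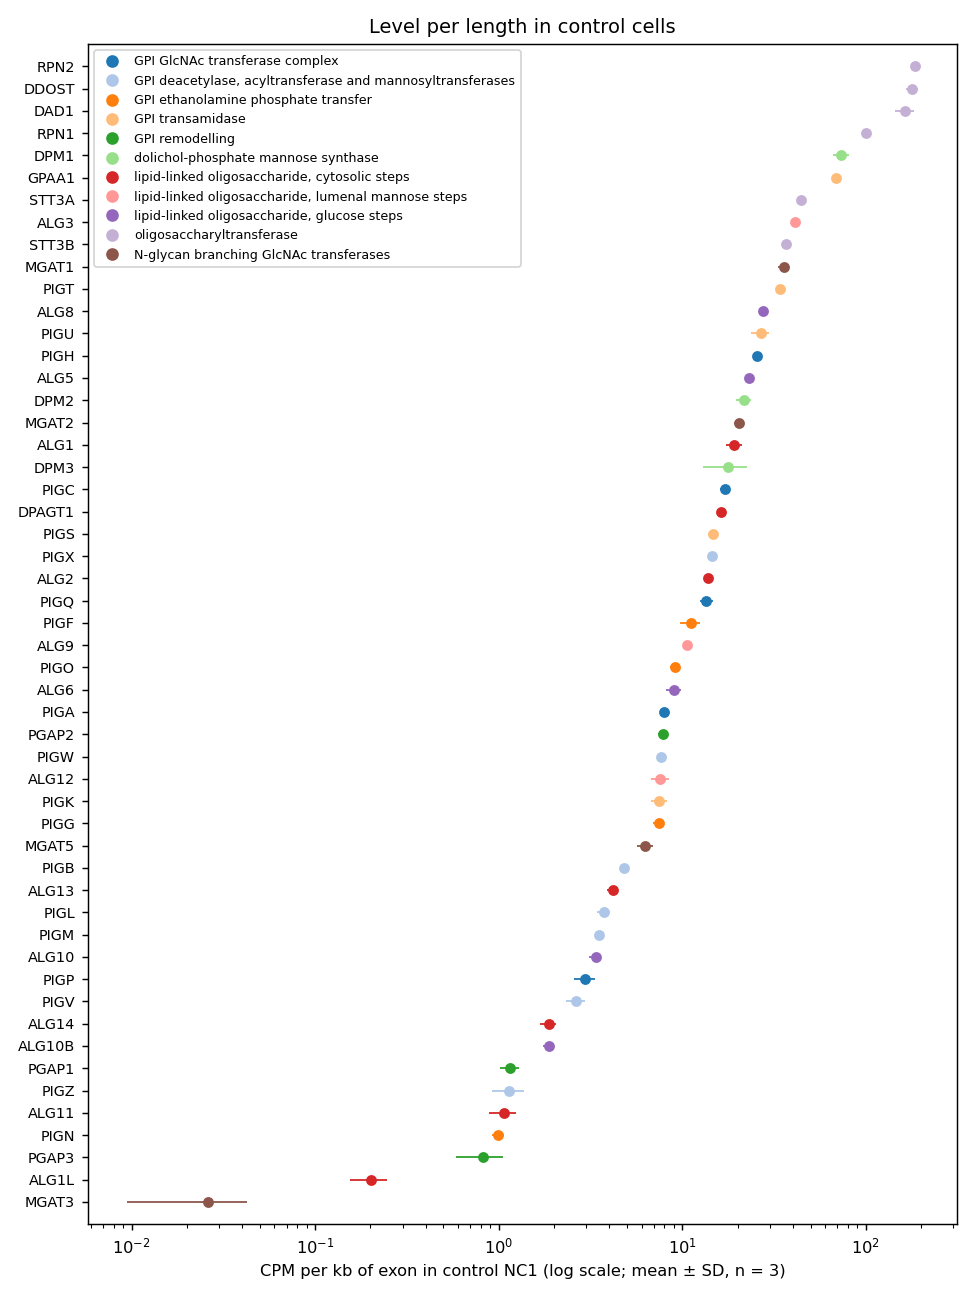
Mean CPM per kb of exon in control libraries (log scale, bars ± SD, n = 3) for the 52 members with reads, coloured by role. The oligosaccharyltransferase genes hold the first 4 places, and ALG1L and MGAT3 the last.

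Further genes of the pathways were read from lists chosen with earlier results of these data known. Their counts stand beside the same shares of all genes tested as the members'. With 13.6 these were 24.9% higher and 25% lower, and with 13.8 they were 27.5% higher and 27.9% lower. Of 16 genes that trim N-glycans or fold glycoproteins, 9 rose and 2 fell with 13.6, and 9 rose and 1 fell with 13.8. The chaperone CANX rose by log2 1.10 ± 0.062 and 0.86 ± 0.061 (edgeR adjusted p = 2.04e-08 and 8.65e-08), and the mannosidases MAN1B1 by 0.54 ± 0.061 and 0.69 ± 0.061 and MAN1A1 by 0.83 ± 0.068 and 0.47 ± 0.068. Their relative MAN1A2 was at 0.17 ± 0.070, not called, and 0.62 ± 0.070. Of 7 other genes for oligosaccharyltransferase subunits or proteins associated with the enzyme, the same count of 3 rose with each reagent and none fell. OSTC rose by log2 0.89 ± 0.083 and 0.78 ± 0.083, MAGT1 by 0.34 ± 0.053 and 0.41 ± 0.053, and TUSC3 by 0.24 ± 0.073 and 0.27 ± 0.073. Of 17 genes that supply dolichol and sugar donors, 6 rose and 6 fell with 13.6, and 4 rose and 5 fell with 13.8. NUS1, a subunit of the enzyme that makes the dolichol chain, fell by 2.11-fold with 13.6 (log2 -1.08 ± 0.061, edgeR adjusted p = 2.25e-08) and rose with 13.8 (log2 0.29 ± 0.060, adjusted p = 0.00121). PGM3 and GNPNAT1, which make the GlcNAc donor, had log2 changes of 0.0061 ± 0.060, not called, and -0.60 ± 0.060 for the first and 0.58 ± 0.061 and 0.32 ± 0.061 for the second. SRD5A3, a reductase of dolichol synthesis, rose by 0.42 ± 0.070 and 0.57 ± 0.070.

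Of 8 other Golgi enzymes of N-glycans, 3 rose and 2 fell with 13.6, and 3 rose and 1 fell with 13.8. For this list and the next, 24.9% of all genes tested rose and 25% fell with 13.6. With 13.8, 27.5% rose and 27.9% fell. MAN2A1 and MAN2A2 both encode the mannosidase that acts after MGAT1, and they moved apart, MAN2A1 rising by log2 1.23 ± 0.072 and 1.38 ± 0.072 and MAN2A2 changing by -0.99 ± 0.073 and -0.52 ± 0.072 (edgeR adjusted p = 2.66e-08 and 5.65e-09, then 1.93e-07 and 3.99e-05). FUT8, the core fucosyltransferase, rose by 0.47 ± 0.13 and 0.79 ± 0.13. MGAT5B, a relative of MGAT5, fell with 13.6 and rose with 13.8, as MGAT5 did (log2 -1.19 ± 0.11 and 0.27 ± 0.11, edgeR adjusted p = 1.87e-06 and 0.0427). Of 6 further GPI genes, 5 were tested, of which 1 rose and 3 fell with 13.6, and 1 rose and 2 fell with 13.8. TMEM8A, also called PGAP6, which cleaves some GPI anchors, fell with both (log2 -0.40 ± 0.057 and -0.83 ± 0.057). CLPTM1L, a scramblase for a GPI precursor, rose with 13.6 (log2 0.33 ± 0.056) and was at -0.097 ± 0.056 with 13.8, not called. ARV1, a membrane protein needed for early GPI intermediates, was at -0.16 ± 0.076, not called, and 0.41 ± 0.075. SPPL2B was at -0.86 ± 0.082, called lower, and 0.14 ± 0.079, not called.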

How the data were processed

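RNA was sequenced from 9 libraries, 3 per group, made with the NEBNext Ultra II Directional kit per the labels' protocols. Per the submitters' processing notes, the tools were HTSeq, STAR, cutadapt, FastQC and DESeq2 with genome hg19. Their versions, the annotation and the strand setting were not given in the sources used here. Read counts per gene symbol were deposited by the authors in 1 table, without normalization, and normalized log2 values in another. The deposited log2 values, turned back into reads, differed from the counts by at most 0.00202 reads over 25354 genes, so they were not tested separately. The count table has 25398 rows; 16 are repeats, and 28 entries whose symbols had become dates hold 0.200% of reads.

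Counts were fitted with edgeR 4.0.16 (R 4.3.3): genes kept by filterByExpr with a minimum of 10 reads, TMM scaling, 1 quasi-likelihood model of the 3 groups with 6 residual degrees of freedom, and Benjamini-Hochberg adjustment over 14731 genes. Replicates were distinct libraries: chi-square per degree of freedom between replicates was 4.98 to 43.1, and log2 CPM correlated at 0.991 to 0.995 within groups and 0.964 to 0.978 between them. As a check of the code, the fit was run on simulated data with 200 changed genes among 14731. It recovered 70% of 1.5-fold and 79% of 2-fold changes for 13.6, and 68% and 75% for 13.8. In the data 49.9% and 55.5% of genes were called, far more than were changed there, so these rates do not carry over to the results. Library depth was 38105026 to 52272147 reads. The SE of a log2 fold change is its absolute value divided by the square root of the edgeR F statistic. It was not estimated separately.

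Values in every library are given for TBX3 and for members called in at least 1 comparison with an absolute log2 fold change of at least 0.5 and a mean of at least 1 CPM, or with the highest level in their role. Where these exceeded 24, the 24 with the largest changes were kept, and STT3A, STT3B and DPM3 (control libraries) were added after their values were seen. From each further list up to 4 genes with the smallest adjusted p are named. The members and all lists were chosen with earlier results of these data known. Alternatives were DESeq2 1.42.0, limma-voom (limma 3.58.1), other scalings and filters, a stricter threshold, 2-group fits, the replicate number as a block, and leaving out each library.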

Additional observations from a re-analysis of the deposited data

Results flagged for a closer look

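In 8 members all libraries of one reagent lay above the controls and all libraries of the other below them, and edgeR called the difference between the reagents itself. The same held for 11.5% of all genes tested, so nothing particular to the members is read from the count. The log2 difference, 13.6 minus 13.8, was 2.53 for PIGA, 1.36 for MGAT1 and 0.69 for PIGW, which were higher with 13.6 (adjusted p = 8.72e-11, 1.93e-09 and 1.71e-06). It was -1.98 for PIGF, -1.61 for PIGV, -1.02 for MGAT5, -0.87 for ALG14 and -0.60 for PIGL, which were higher with 13.8 (edgeR adjusted p = 3.53e-09, 5.1e-08, 2.42e-07, 1.29e-06 and 0.00197). PIGL differs from the other 7 in that its change with 13.8 was not called against control (adjusted p = 0.181). TBX3 itself was lower with 13.8 than with 13.6 by log2 0.26 (adjusted p = 0.00699); the part of this in the 8 differences was not tested.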

How the results depend on the processing

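The count of members called was 36 with 13.6, 30 with 13.8, 36 for the mean of both and 40 between the reagents. Leaving out each library gave 31 to 35, 27 to 29, 32 to 37 and 30 to 42. The other alternatives gave 29 to 39, 27 to 33, 30 to 39 and 28 to 43, all within 1.5 times, and no called member changed direction under any alternative run. Over all genes, calls numbered 7357, 8169, 7398 and 8995, with 6304 to 7504, 7164 to 8450, 6623 to 7490 and 8021 to 9603 on leaving out a library. The 2-group fit was not run for the mean of both. Whether the replicate numbers pair the samples is not settled, and the main fit did not use them. Same-numbered libraries correlated at -0.18 to 0.19 in their deviations, with 3 of 9 pairs over 0.1. A library correlated best with its own number in 10 of 18 checks. With the replicate block, 39, 33, 39 and 41 members and 8010, 8803, 8033 and 9581 genes were called. Each of these counts exceeded that of the main fit. Members at few reads (ALG1L, MGAT3) leave the test when a mean of 50 reads is required.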

Other observations

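Genes of proteins that carry a GPI anchor were also read, from a list of 63 chosen with earlier results of these data known, of which 37 were tested. With 13.6, 22 rose and 2 fell, and with 13.8, 26 rose and 3 fell, with median log2 changes of 0.36 and 0.68. Of all genes tested, 24.9% rose and 25% fell with 13.6, and 27.5% rose and 27.9% fell with 13.8. Among the 24 with a mean of at least 5 CPM, a limit chosen after seeing the data, 17 rose and 1 fell with 13.6 and 18 rose and 1 fell with 13.8. Of all genes at that level, 28.7% rose and 28.4% fell with 13.6, and 26.9% rose and 35% fell with 13.8. Between the reagents, 5 of the 37 were higher with 13.6 and 21 with 13.8, against 30.9% and 30.2% of all genes tested. The genes named next were taken by the smallest adjusted p, and all of them rose.

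LSAMP, a neuronal adhesion protein, was at 10.6 ± 0.436 CPM in control (SD, n = 3), 15.5 ± 0.905 with 13.6 and 60.2 ± 3.21 with 13.8, with log2 changes of 0.56 ± 0.077 and 2.51 ± 0.077 (edgeR adjusted p = 5.47e-05 and 1.61e-10). EFNA1, an ephrin ligand, rose from 4.32 ± 0.234 CPM to 9.04 ± 0.686 and 18.8 ± 0.328, by log2 1.06 ± 0.097 and 2.12 ± 0.095 (edgeR adjusted p = 1.34e-06 and 1.67e-09). BST2, an interferon-inducible protein that tethers virus particles, rose from 0.588 ± 0.224 CPM to 1.30 ± 0.186 and 10.7 ± 1.53, by log2 1.16 ± 0.26 and 4.19 ± 0.22 (edgeR adjusted p = 0.00206 and 5.24e-09). RTN4RL1, a Nogo receptor relative, rose by log2 1.16 ± 0.10 and 1.58 ± 0.099 (edgeR adjusted p = 7.95e-07 and 2.64e-08). THY1 is on this list and among the fibroblast markers, whose summed level was 5.33 to 6.86 CPM in control, 6.97 to 8.90 with 13.6 and 27.2 to 28.5 with 13.8; their part in these counts was not tested. No anchor or surface protein was measured.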
